A study of Mus musculus with 16 samples.

Results

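The genes described here are 34 interferon response genes, measured in the ventricles of female mice. They were taken as a fixed list of symbols, and each was read from the probe whose RefSeq accession maps to that symbol, with the brightest probe standing for a gene that has several. Of the 34 genes, 32 had such a probe among the 21154 genes with a named probe, and no probe was named for Mx1 or Mx2, a pair of antiviral GTPases. A gene was tested if some group had its probe well above background on each of that group's 4 arrays. That left 31 of the 34 among 14060 genes tested. Oas3, a synthetase of the alarm molecule 2-5A, was the one measured gene left out, being well above background on 1 of 16 arrays.

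RNA came from 4 groups of 4 independent female mice: nulliparous wild-type (Npr1+/+), lactating wild-type, nulliparous Npr1 knockout (Npr1-/-) and lactating Npr1 knockout. Lactating mice were taken at 2 weeks of lactation. Npr1 encodes guanylyl cyclase A, the receptor through which the atrial and B-type natriuretic peptides act. The sources used here do not give the strain, the age or the cells in which the gene was lost. The labels name no drug and no infection. Each array was hybridised with Cy3-labelled RNA of 1 mouse, made from 200 ng of total RNA.

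Interferons are secreted signals of antiviral defence. Type I interferons bind the receptor pair Ifnar1 and Ifnar2, whose kinases Jak1 and Tyk2 lead to a complex with Stat2 and Irf9 that binds the interferon-stimulated response element in the promoters of its targets. Interferon gamma acts through Ifngr1 and Ifngr2 and a different promoter element, the gamma-activated site. Many of the induced genes are themselves sensors of viral RNA or transcription factors of the same pathway, and healthy tissues keep a low tonic level of the response.

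Promoter windows of 300 bases, from 250 before to 50 after the start site, were present for 24 of the 34 genes in the RefSeq table of assembly GRCm38.p6. The core of the interferon-stimulated response element, searched on both strands as GAAA, any 2 bases and GAAA again, was found in 13 of these 24 genes (54.2%), against 3.99% of the 27025 genes with a window. The core of the gamma-activated site, searched as TTCNNNGAA on both strands, was found in 7 of 24 (29.2%), against 9.55%. The search allowed the 2 motifs and neighbouring matches to overlap. Several of these promoters are textbook examples of interferon response, so the share describes the list and not these hearts. The windows below belong to the 5 genes with a match that passed the test in the most comparisons, ties going to the smaller adjusted p, and are shown for the place of the core in each. The fifth, Ddx58, passed in none. A match was a condition of being shown. The core lay in 4 of the 9 genes with a window that passed in at least 1 comparison and in 8 of the 14 that were tested and did not. Capitals mark this first core on either strand. The windows lie at chr17:78882523-78882822 on the minus strand for Eif2ak2, chr2:62646206-62646505 on the minus strand for Ifih1, chr5:120907476-120907775 on the minus strand for Oas1a, chr19:34583279-34583578 on the plus strand for Ifit3 and chr4:40239776-40240075 on the minus strand for Ddx58, each written 5′ to 3′ along its gene.
Eif2ak2: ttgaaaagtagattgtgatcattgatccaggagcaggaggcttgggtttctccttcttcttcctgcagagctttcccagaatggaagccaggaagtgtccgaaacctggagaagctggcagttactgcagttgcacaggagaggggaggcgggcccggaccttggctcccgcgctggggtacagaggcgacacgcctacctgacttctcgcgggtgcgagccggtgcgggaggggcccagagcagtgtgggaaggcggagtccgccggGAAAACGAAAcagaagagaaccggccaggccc
Ifih1: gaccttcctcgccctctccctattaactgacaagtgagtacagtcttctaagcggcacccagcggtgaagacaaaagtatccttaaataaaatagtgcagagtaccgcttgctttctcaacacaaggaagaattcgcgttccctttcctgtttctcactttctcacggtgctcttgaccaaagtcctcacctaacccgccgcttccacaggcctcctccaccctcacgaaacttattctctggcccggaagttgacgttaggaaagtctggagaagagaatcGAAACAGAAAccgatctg
Oas1a: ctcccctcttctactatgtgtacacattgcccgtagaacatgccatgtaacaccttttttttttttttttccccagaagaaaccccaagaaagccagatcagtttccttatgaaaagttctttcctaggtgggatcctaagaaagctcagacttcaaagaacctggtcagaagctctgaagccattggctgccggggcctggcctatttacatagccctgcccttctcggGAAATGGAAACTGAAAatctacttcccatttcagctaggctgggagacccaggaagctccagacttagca
Ifit3: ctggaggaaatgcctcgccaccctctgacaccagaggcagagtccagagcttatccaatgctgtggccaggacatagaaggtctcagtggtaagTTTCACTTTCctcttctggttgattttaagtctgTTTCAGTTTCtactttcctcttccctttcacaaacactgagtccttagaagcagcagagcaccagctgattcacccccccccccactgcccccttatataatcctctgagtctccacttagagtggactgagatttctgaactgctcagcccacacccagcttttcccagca
Ddx58: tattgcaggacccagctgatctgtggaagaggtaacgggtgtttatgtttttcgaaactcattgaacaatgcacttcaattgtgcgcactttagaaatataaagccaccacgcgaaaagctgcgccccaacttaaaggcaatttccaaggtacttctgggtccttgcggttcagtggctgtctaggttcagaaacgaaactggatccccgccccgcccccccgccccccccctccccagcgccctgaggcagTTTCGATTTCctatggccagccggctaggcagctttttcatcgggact
Eif2ak2, Ifih1 and Ddx58 have 1 match each, while Oas1a has 2 that overlap and Ifit3 has 2 apart. Isg15 had 3 matches, and Ifit1, Bst2 and Gbp3 had 2 each. The window of Irf7 held no match to these letters, nor did those of Oasl2, Ifi44, Tap1, Ifit2, Irf9, Irf1, Psmb8, Psmb9, Trim25 and Xaf1.

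The 16 arrays lay on 2 slides, with replicates 1 and 2 of every group on slide 1 and replicates 3 and 4 on slide 2. The arrays of a slide shared 1 scan date. Each group kept the same column of array positions on both slides, so position and group cannot be told apart. The array's 75th percentile of signal, to which all values are scaled, ran from 165 to 221 on nulliparous arrays, except 284 on knockout replicate 4, and from 278 to 347 on lactating arrays. The single probe of Npr1 was dim, at -4.47 to -3.62 in nulliparous wild-type and -4.15 to -3.71 in nulliparous knockout hearts, and was above background on at most 3 arrays of any group. The genotype labels could therefore not be checked from it. Levels below are log2 of the signal over the 75th percentile of its array, so that 0 is a signal equal to that percentile. They compare arrays for 1 gene and not genes with each other, since probes differ in brightness.

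In wild-type hearts, lactation came with little movement of the interferon response as a whole. Of the 31 genes, 4 rose and 0 fell at an adjusted p under 0.05 (limma, Benjamini-Hochberg over all genes tested), which is 12.9% called, while 50.3% of all genes were called in this comparison, 31.8% higher and 18.5% lower. The 4 were Zbp1, Irf7, Ifi27l2a and Rtp4, and without lactating wild-type replicate 4 the count was 2. Zbp1 passed the filter on dim probes only through the lactating groups, and without it 3 of 30 genes rose here and 11 of 30 in knockout hearts. The median difference of the 31 genes was 0.05 on the log2 scale (0.01 without Zbp1), against 0.101 for all genes, with 16 genes above 0 and 15 below. On 5 genes, Zbp1 among them, every lactating array lay above every nulliparous one, 30.3% being the share over all genes, and on 0 genes every one lay below (16.9% over all genes). The counts at an unadjusted p under 0.05 were 4 higher (35% of all genes) and 1 lower, Trim25 (21.1%).

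In knockout hearts, 12 of 31 genes rose with lactation and 0 fell (38.7%), against 44.1% of all genes called, 25.5% higher and 18.6% lower. The share called was thus close to that of all genes called in either direction, while every call among the interferon genes was a rise. The largest rises were those of Ifi27l2a, Zbp1, Eif2ak2 and Oas1a, followed by Ifi44, Rtp4, Irf7, Oasl2, Tap1, Ifit2, Ifih1 and Ifit3. The median difference was 0.48 (0.45 without Zbp1), against 0.061 for all genes, and 29 genes lay above 0 and 2 below, Stat2 at -0.07 and Trim25 at -0.21. Without adjustment of p, 15 passed 0.05 higher (30.1% of all genes) and 1 lower, Trim25 (22.4%). On 9 genes, Zbp1 among them, every lactating array lay above every nulliparous one, against 19% of all genes, and on 0 the reverse held (14.1%). All 4 genes that rose in wild-type hearts were among the 12, and the other 8 passed the test in knockout hearts and not in wild-type hearts, which alone does not show that the genotypes differ. The call rates depend on where the arrays are centred. With each array centred on its median the genes called higher made up 80.3% of all calls in wild-type and 79.2% in knockout hearts, in place of 63.2% and 57.9%, and the median of all genes moved from 0.101 to 0.283 and from 0.061 to 0.242. The interferon genes called then numbered 7 of 31 (22.6%) and 20 of 31 (64.5%), all of them higher, where 53.6% and 47.7% of all genes were called, 43.1% and 37.7% higher. In wild-type hearts their share thus stayed below that of all genes called in either direction, while in knockout hearts it went from below it to above it. Set against genes called higher only, the knockout share was above at both centrings (38.7% against 25.5%, then 64.5% against 37.7%). The wild-type share was below at both.

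**Figure D1:**
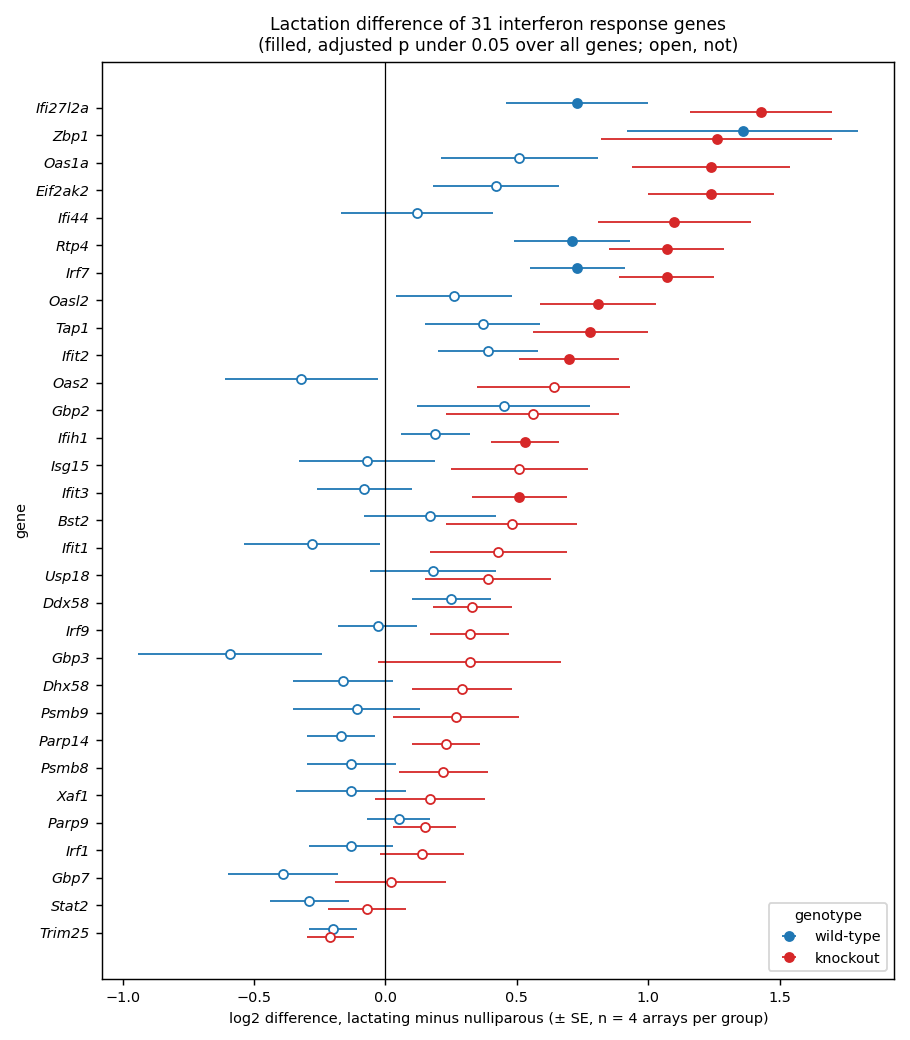
Lactation difference of each of the 31 tested genes, lactating minus nulliparous, in log2 units on the horizontal axis, with 1 point per genotype, bars of 1 SE and 4 arrays per group. Genes are ordered by the knockout value, filled points passed the test over all genes, and the knockout points run from -0.21 for Trim25 to 1.43 for Ifi27l2a while the wild-type points run from -0.59 for Gbp3 to 1.36 for Zbp1.

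The test of the difference between those 2 lactation responses called none of the 31 genes. In limma's interaction contrast 0 of 31 were called, against 0.0925% of all genes, and the smallest adjusted p was 0.717. At an unadjusted p under 0.05, 5 genes were higher in the knockout response (2% of all genes) and 0 lower (4.38%): Eif2ak2, Ifi44, Oas2, Ifit3 and Parp14. Eif2ak2 differed by 0.82 ± 0.34 (SE; 95% interval 0.10 to 1.54, adjusted p = 0.717) and Ifi44 by 0.98 ± 0.41 (0.10 to 1.85, adjusted p = 0.717). For Irf7 the difference was 0.34 ± 0.25 (-0.19 to 0.88). The median of the 31 genes was 0.35, against -0.058 for all genes, and 29 of them lay above 0, where 38.9% of all genes did. The genes varied together within groups, as given below, so this is no count of independent results.

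Between genotypes, no interferon gene passed the test in either state. In nulliparous hearts 0 of 31 were called (limma; 0.0996% of all genes), the smallest adjusted p being 0.542. At an unadjusted p under 0.05, 0 were higher (6.5% of all genes) and 2 lower (2.13%), Gbp7 at -0.49 ± 0.21 and Oas2 at -0.64 ± 0.29. The median was -0.16 against 0.053, with 4 genes above 0 and 27 below. In lactating hearts 0 of 31 were called (0.199%), the smallest adjusted p being 0.365, and at an unadjusted p under 0.05 Eif2ak2 (0.59 ± 0.24) and Parp14 (0.35 ± 0.13) were higher and 0 lower, as were 4.24% and 4.9% of all genes. The median was 0.28 against 0, with 29 genes above 0. On Ifi44, Ifih1, Psmb8 and Tap1 every lactating knockout array lay above every lactating wild-type one, where 3.22% of all genes did. The genotype comparisons use the same arrays as the lactation comparisons and add no separate evidence to them.

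Averaged over the 31 genes, after subtracting each gene's mean over the 16 arrays, the level was -0.09 ± 0.24 (SD, n = 4) in nulliparous wild-type, 0.04 ± 0.16 in lactating wild-type, -0.25 ± 0.35 in nulliparous knockout and 0.30 ± 0.18 in lactating knockout hearts. The 4 nulliparous knockout arrays read -0.43 and -0.65 on slide 1 and 0.04 and 0.04 on slide 2. On each of the first pair, 1 of 31 genes lay above its own mean, and on the second pair 22 and 18 did. The lactating knockout arrays read 0.25, 0.54, 0.11 and 0.29, all above the nulliparous ones of their genotype. The nulliparous wild-type arrays read 0.17, -0.06, -0.41 and -0.04 and the lactating wild-type arrays -0.16, 0.07, 0.03 and 0.21, so that the wild-type groups overlap. The lowest wild-type array, nulliparous replicate 3, was also the lowest of the 16 in the mean over all genes, at -0.16. These averages include Zbp1, which entered the test only through the lactating groups and read -5.56 on that array. The median over the 31 genes there was -0.39.

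**Figure D2:**
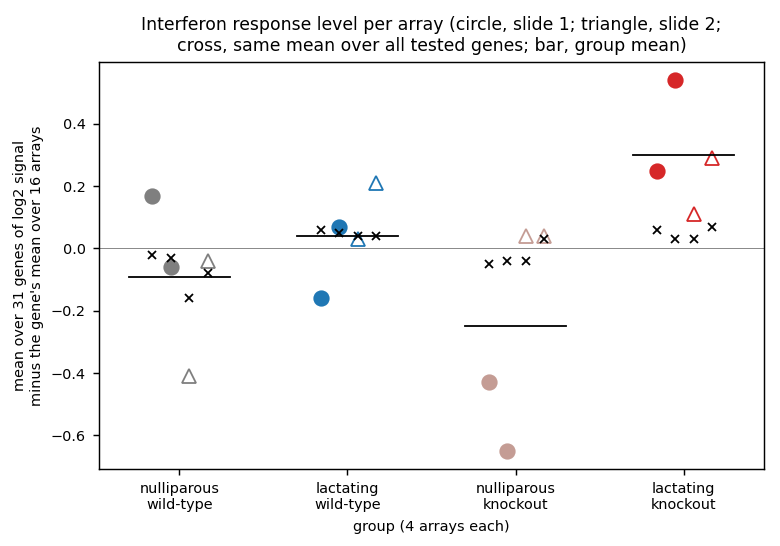
Mean of the 31 genes on each array, as log2 signal minus the gene's mean over 16 arrays, by group, with circles for slide 1, triangles for slide 2, a bar for the mean of 4 arrays and a cross for the same mean over all genes tested. Nulliparous knockout arrays of slide 1 sit at -0.43 and -0.65, below all other arrays, while those of slide 2 sit at 0.04.

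Of the transcription factors of the response on the list, Irf7, Stat2, Irf9 and Irf1, Irf7 alone passed a test. In the values that follow, replicates 1 to 4 are given in order, the first pair from slide 1. Irf7 read -1.42, -1.63, -1.68 and -1.72 in nulliparous wild-type, -0.95, -0.79, -0.86 and -0.92 in lactating wild-type, -2.23, -2.09, -1.60 and -1.54 in nulliparous knockout and -1.0, -0.34, -1.17 and -0.66 in lactating knockout hearts. Irf7 is the interferon-induced factor that amplifies type I interferon production. Every lactating array lay above every nulliparous one in both genotypes, and Irf7 rose by 0.73 ± 0.18 (SE, 1.66-fold, adjusted p = 0.00367) in wild-type and by 1.07 ± 0.18 (2.10-fold, adjusted p = 0.000767) in knockout hearts. The 2 lowest arrays of all were the nulliparous knockout ones of slide 1.

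Stat2 read 2.26, 2.11, 1.67 and 2.13 in nulliparous wild-type, 1.51, 1.93, 1.72 and 1.88 in lactating wild-type, 1.84, 1.64, 2.18 and 1.97 in nulliparous knockout and 1.70, 2.07, 1.73 and 1.86 in lactating knockout hearts. Irf9 read 2.32, 2.24, 1.79 and 2.41 in nulliparous wild-type, 1.95, 2.24, 2.17 and 2.27 in lactating wild-type, 1.88, 1.78, 2.18 and 2.28 in nulliparous knockout and 2.14, 2.54, 2.31 and 2.40 in lactating knockout hearts. Stat2 and Irf9 are subunits of the complex that binds the response element, and their groups overlapped in both genotypes. Stat2 differed with lactation by -0.29 ± 0.15 in wild-type (adjusted p = 0.119) and -0.07 ± 0.15 in knockout hearts (0.723), and Irf9 by -0.03 ± 0.15 (0.870) and 0.32 ± 0.15 (0.0922). Irf1 read 3.48, 3.16, 2.70 and 3.44 in nulliparous wild-type, 2.91, 2.97, 3.29 and 3.09 in lactating wild-type, 2.86, 2.79, 3.11 and 3.27 in nulliparous knockout and 3.01, 3.05, 3.21 and 3.30 in lactating knockout hearts. Irf1, a factor induced chiefly by interferon gamma, differed by -0.13 ± 0.16 in wild-type (adjusted p = 0.513) and 0.14 ± 0.16 in knockout hearts (0.516), with overlapping groups. Averaging its 2 probes called Irf1 lower in wild-type hearts, but its second probe was above background on 0 arrays.

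The sensors of foreign RNA and DNA on the list are Zbp1, Ifih1, Ddx58 and Dhx58. Zbp1 read -3.40, -3.68, -5.56 and -3.35 in nulliparous wild-type, -3.16, -2.73, -2.54 and -2.13 in lactating wild-type, -3.79, -4.29, -2.88 and -3.13 in nulliparous knockout and -2.24, -1.78, -2.43 and -2.57 in lactating knockout hearts. Zbp1 senses nucleic acid in the Z conformation and can start necroptosis. Its probe was close to background, being above it on 2 of 4 nulliparous wild-type and 3 of 4 nulliparous knockout arrays and on all 4 of each lactating group, through which alone it entered the test. Its fitted differences of 1.36 ± 0.44 (adjusted p = 0.0186) in wild-type and 1.26 ± 0.44 (0.0303) in knockout hearts are thus in part against signal not well above background and are no measured fold. Both calls ended with another background correction (0.11, adjusted p = 0.505, and 0.18, adjusted p = 0.264). That correction adds 50 to every signal, which by itself shrinks log2 differences of dim probes, so this loss cannot decide whether the calls hold. Averaging the 2 probes of Zbp1 also ended the wild-type call, at 0.80 (adjusted p = 0.107), as did leaving out lactating replicate 4 (0.0543). The knockout call was lost without replicate 1 or 2 of either knockout group (0.0552 to 0.1).

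Ifih1, which encodes the sensor MDA5 of long double-stranded RNA, rose in knockout hearts by 0.53 ± 0.13 (1.44-fold, adjusted p = 0.00425) and differed by 0.19 ± 0.13 in wild-type hearts (0.213). Its group means were -0.17 ± 0.16 (SD, n = 4), 0.02 ± 0.09, -0.27 ± 0.30 and 0.27 ± 0.05 in nulliparous wild-type, lactating wild-type, nulliparous knockout and lactating knockout hearts. Ddx58, which encodes the sensor RIG-I, differed by 0.25 ± 0.15 in wild-type (adjusted p = 0.173) and 0.33 ± 0.15 in knockout hearts (0.0809). Dhx58, which encodes LGP2, a helicase that tunes both sensors, differed by -0.16 ± 0.19 (0.486) and 0.29 ± 0.19 (0.222). For neither did the groups separate.

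Eif2ak2 and Oas1a, which act against viral RNA, passed the test in knockout hearts and not in wild-type hearts. Eif2ak2 read -0.44, -0.55, -1.14 and -0.76 in nulliparous wild-type, -0.39, -0.16, -0.35 and -0.31 in lactating wild-type, -1.23, -1.26, -0.78 and -0.54 in nulliparous knockout and 0.18, 0.87, -0.41 and 0.52 in lactating knockout hearts. Eif2ak2 encodes PKR, the kinase that halts translation when it binds double-stranded RNA. Eif2ak2 rose by 1.24 ± 0.24 (2.36-fold, adjusted p = 0.00154) in knockout hearts. In wild-type hearts it differed by 0.42 ± 0.24 (adjusted p = 0.160), although the 2 wild-type groups did not overlap. Oas1a read 1.04, 0.93, 0.59 and 1.11 in nulliparous wild-type, 0.83, 1.56, 1.37 and 1.94 in lactating wild-type, 0.14, 0.10, 1.5 and 1.13 in nulliparous knockout and 1.81, 2.39, 1.70 and 1.92 in lactating knockout hearts. Oas1a makes the messenger that activates RNase L, and it rose by 1.24 ± 0.30 (2.36-fold, adjusted p = 0.00527) in knockout hearts, where the groups did not overlap. Its wild-type difference was 0.51 ± 0.30 (adjusted p = 0.177). A second, dimmer probe of Oas1a gave 0.63 and 1.49 for the same differences. Oas1a and Ifit3 have close relatives in the mouse genome, and binding of their RNA to these probes was not tested.

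Oasl2, an OAS-like protein, rose in knockout hearts by 0.81 ± 0.22 (1.75-fold, adjusted p = 0.0103), while Oas2, another synthetase, differed by 0.64 ± 0.29 (adjusted p = 0.0867) there and by -0.32 ± 0.29 (0.388) in wild-type hearts. Ifit1 read -0.92, -1.21, -1.63 and -0.99 in nulliparous wild-type, -1.64, -1.48, -1.47 and -1.28 in lactating wild-type, -1.71, -1.96, -0.99 and -1.37 in nulliparous knockout and -1.43, -0.26, -1.24 and -1.37 in lactating knockout hearts. Ifit3 read 1.30, 1.05, 0.73 and 0.64 in nulliparous wild-type, 0.96, 0.87, 0.67 and 0.90 in lactating wild-type, 0.49, 0.25, 0.99 and 0.87 in nulliparous knockout and 1.05, 1.52, 0.92 and 1.15 in lactating knockout hearts. Ifit1 and Ifit3 belong to 1 family of interferon-induced antiviral proteins. Lactating knockout replicate 2 was the highest array for both, at -0.26 and 1.52. Ifit3 rose by 0.51 ± 0.18 (1.42-fold, adjusted p = 0.0340) in knockout hearts with overlapping groups, a call lost without knockout nulliparous replicate 1 or 2 or lactating replicate 2 or 4 (adjusted p 0.0608 to 0.117). Ifit1 differed by 0.43 ± 0.26 (adjusted p = 0.187) in knockout and -0.28 ± 0.26 (0.383) in wild-type hearts. Ifit2, of the same family, rose by 0.70 ± 0.19 (1.63-fold, adjusted p = 0.00935) in knockout hearts.

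Ifi27l2a read 4.19, 4.15, 4.09 and 4.35 in nulliparous wild-type, 4.54, 4.99, 4.86 and 5.29 in lactating wild-type, 3.36, 3.37, 4.73 and 4.11 in nulliparous knockout and 5.20, 5.81, 5.05 and 5.22 in lactating knockout hearts. Ifi27l2a, a small membrane protein that is among the most strongly induced interferon targets in mice, had no overlap between lactating and nulliparous arrays in either genotype. It rose by 0.73 ± 0.27 (1.65-fold, adjusted p = 0.0345) in wild-type and by 1.43 ± 0.27 (2.69-fold, adjusted p = 0.00133) in knockout hearts. The wild-type call was lost without nulliparous replicate 1, 2 or 3 or lactating replicate 2, 3 or 4, with adjusted p from 0.0564 to 0.0976. Rtp4 read 1.37, 1.30, 1.05 and 1.37 in nulliparous wild-type, 1.62, 2.14, 2.00 and 2.19 in lactating wild-type, 0.92, 0.54, 1.15 and 1.89 in nulliparous knockout and 2.07, 2.44, 2.10 and 2.15 in lactating knockout hearts. Rtp4, a chaperone of membrane receptors that also restrains interferon signalling, rose by 0.71 ± 0.22 (1.64-fold, adjusted p = 0.0150) and 1.07 ± 0.22 (2.10-fold, adjusted p = 0.00215), again without overlap. Ifi44 rose by 1.10 ± 0.29 (2.14-fold, adjusted p = 0.00781) in knockout hearts, from a mean of -0.97 ± 0.64 (SD, n = 4) to 0.13 ± 0.29. Bst2, which tethers budding virus to the cell, and Xaf1, a pro-apoptotic protein, did not pass in either genotype. Bst2 differed by 0.17 ± 0.25 (0.599) and 0.48 ± 0.25 (0.138), and Xaf1 by -0.13 ± 0.21 (0.637) and 0.17 ± 0.21 (0.539). A second probe of Xaf1, above background on all 16 arrays, gave -4.70 and -1.86, so the 2 probes of this gene disagree.

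**Figure D3:**
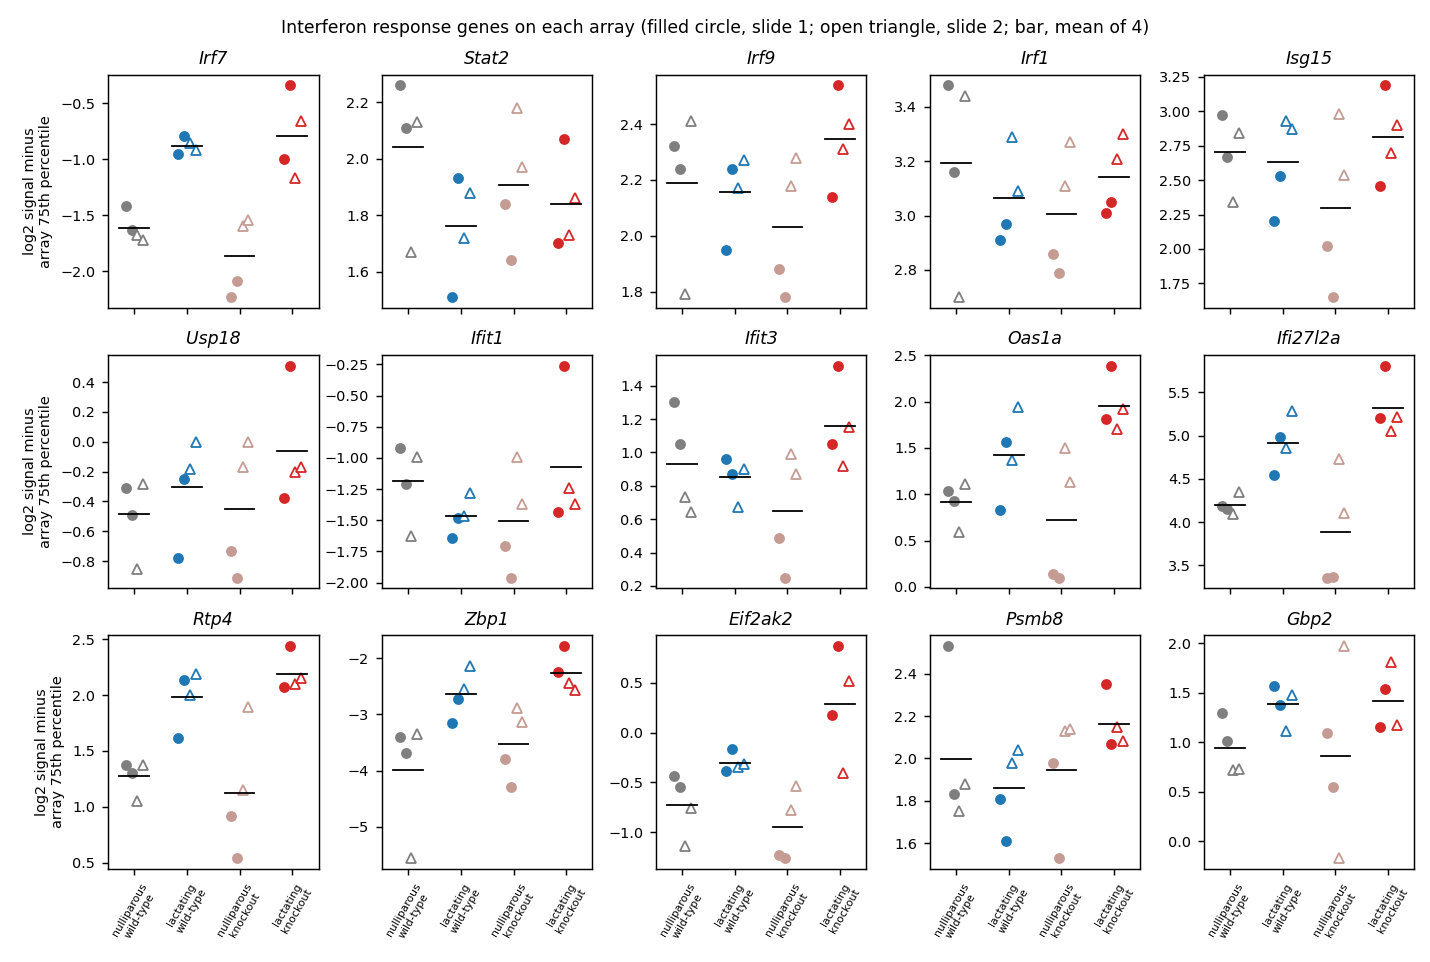
Level of 15 genes on each of the 16 arrays, as log2 of the signal over the 75th percentile of its array, by group, with filled circles for slide 1, open triangles for slide 2 and a bar for the mean of 4 arrays. For Irf7, Ifi27l2a, Rtp4 and Zbp1 the lactating arrays lie above the nulliparous ones in both genotypes, and for most other panels the nulliparous knockout circles lie lowest in their group.

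Isg15 and Usp18, the members from the ubiquitin-like branch of the response, passed the test in neither genotype over both slides. Isg15 read 2.97, 2.67, 2.34 and 2.84 in nulliparous wild-type, 2.20, 2.53, 2.93 and 2.87 in lactating wild-type, 2.02, 1.65, 2.98 and 2.54 in nulliparous knockout and 2.46, 3.19, 2.70 and 2.90 in lactating knockout hearts. Usp18 read -0.31, -0.49, -0.85 and -0.28 in nulliparous wild-type, -0.78, -0.25, -0.18 and 0.00 in lactating wild-type, -0.73, -0.91, -0.17 and 0.00 in nulliparous knockout and -0.38, 0.51, -0.20 and -0.17 in lactating knockout hearts. Isg15 is the ubiquitin-like modifier itself, and Usp18 removes it and blocks the type I receptor. Isg15 differed by -0.07 ± 0.26 in wild-type (adjusted p = 0.832) and 0.51 ± 0.26 in knockout hearts (0.120), and Usp18 by 0.18 ± 0.24 (0.554) and 0.39 ± 0.24 (0.194). The groups of both genes overlapped in both genotypes. Trim25, the ubiquitin ligase that acts on RIG-I, differed by -0.20 ± 0.09 (0.0791) and -0.21 ± 0.09 (0.0756), and with quantile normalisation it was called lower in both. Parp9 and Parp14, ADP-ribosyltransferases of the response, differed by 0.05 ± 0.12 (0.740) and -0.17 ± 0.13 (0.270) in wild-type and by 0.15 ± 0.12 (0.308) and 0.23 ± 0.13 (0.146) in knockout hearts. On slide 1 alone Isg15 was called higher in knockout hearts (0.99, adjusted p = 0.0302), against 0.04 on slide 2. Other genes of the ubiquitin-like branch, not members, are named after their values were seen. Ube2l6 (0.62 ± 0.13, 0.00197) and Herc6 (0.57 ± 0.22, 0.0479) rose in knockout hearts. Neither passed in wild-type hearts (0.0825 and 0.475), and Uba7 passed in neither genotype (0.841 and 0.954).

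The genes most tied to interferon gamma held 1 rise. Gbp2 read 1.29, 1.01, 0.72 and 0.73 in nulliparous wild-type, 1.57, 1.38, 1.11 and 1.48 in lactating wild-type, 1.09, 0.55, -0.17 and 1.97 in nulliparous knockout and 1.15, 1.54, 1.81 and 1.17 in lactating knockout hearts. Gbp2 is a guanylate-binding protein that attacks the vacuoles of intracellular pathogens. Nulliparous knockout replicates 3 and 4 were its lowest and highest arrays, and the differences of 0.45 ± 0.33 (adjusted p = 0.274) and 0.56 ± 0.33 (0.182) did not pass. Gbp3 differed by -0.59 ± 0.35 (0.176) and 0.32 ± 0.35 (0.482), and Gbp7 by -0.39 ± 0.21 (0.140) and 0.02 ± 0.21 (0.954). Psmb8 read 2.53, 1.83, 1.75 and 1.88 in nulliparous wild-type, 1.81, 1.61, 1.98 and 2.04 in lactating wild-type, 1.98, 1.53, 2.13 and 2.14 in nulliparous knockout and 2.35, 2.07, 2.15 and 2.08 in lactating knockout hearts. Psmb8 and Psmb9 are catalytic subunits of the immunoproteasome, which cuts peptides for class I presentation. Psmb8 differed by -0.13 ± 0.17 (0.546) and 0.22 ± 0.17 (0.321), with overlapping groups, and Psmb9 by -0.11 ± 0.24 (0.737) and 0.27 ± 0.24 (0.375). Tap1, a subunit of the transporter that carries those peptides, rose by 0.78 ± 0.22 (1.72-fold, adjusted p = 0.00984) in knockout hearts. That call ended with the other background correction (0.13, adjusted p = 0.257), which adds 50 to every signal and so shrinks differences of dim probes by itself.

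The knockout differences were larger in value on slide 1. Fitted on the 8 arrays of slide 1 alone, 18 of 31 genes (58.1%) rose with lactation in knockout hearts, against 25.3% of all genes called higher there, and the median difference was 0.89. These 18 included all 12 called over both slides. On slide 2 alone 0 of 31 were called, as were 0 of all 14060 genes. One of the 2 nulliparous knockout arrays there, replicate 4, had a 75th percentile of 284, within the lactating range of 278 to 347. Its part in the slide 2 results was not tested. At an unadjusted p under 0.05 limma gave 2 higher and 0 lower on slide 2 (7.65% and 6.98% of all genes), with a median of 0.07. Irf7 differed by 1.49 on slide 1 and 0.66 on slide 2, Ifi27l2a by 2.14 and 0.72, Eif2ak2 by 1.77 and 0.71, and Bst2 by 1.23 and -0.28. The sign held on both slides for each of the 12 genes that rose. They were picked by a fit to both slides, so neither this nor their place among the 18 is separate evidence.

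That slide difference was tested in its own contrast. For knockout hearts, 0 of 31 genes were called, against 0.0356% of all genes, with the smallest adjusted p of 0.350 for Bst2. At an unadjusted p under 0.05, limma gave 16 genes with a smaller lactation difference on slide 2 (2.87% of all genes) and 0 with a larger one (2.3%). The median over the 31 genes was -0.84, against -0.001 for all genes, and 30 of 31 lay below 0. For wild-type hearts 0 of 31 were called, as were 0% of all genes, and 1 gene, Parp9, was larger on slide 2 at an unadjusted p under 0.05 (1.79%) and 0 smaller (0.583%). The median there was 0.42 against 0.066. Leaving out wild-type nulliparous replicate 4 or knockout nulliparous replicate 3 gave 1 called gene in the contrast of its own genotype.

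Wild-type hearts on slide 1 alone gave 0 higher and 1 lower gene, Gbp7 at -0.77 (adjusted p = 0.0348), against 23.8% and 15.8% of all genes, with a median of -0.16. On slide 2 alone 0 of 31 were called, against 0.477% higher and 0.135% lower over all genes, and at an unadjusted p under 0.05 limma gave 7 higher and 0 lower (21.5% and 9.79%), with a median of 0.29. The 4 genes that rose over both slides kept their sign on each: Irf7 differed by 0.65 and 0.81, Ifi27l2a by 0.60 and 0.86, Rtp4 by 0.54 and 0.88 and Zbp1 by 0.59 and 2.12. These 4 were also picked by the fit to both slides, so the shared sign is no separate evidence. In nulliparous hearts the knockout minus wild-type median was -0.56 on slide 1 and 0.25 on slide 2. On slide 1 limma called 0 of 31 (0.0427% of all genes), with 0 higher and 17 lower at an unadjusted p under 0.05 (5.38% and 6.31% of all genes), and on slide 2 it called 0 (0.0853%), with 2 higher and 0 lower (4.49% and 1.27%). Slide as such called no gene of the list. The contrast of slide 2 against slide 1 over all groups called 0 of 31 genes (limma; 0.00711% of all genes), with 0 at an unadjusted p under 0.05 in either direction (2.38% higher and 8.12% lower over all genes) and a median of 0.05.

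**Figure D4:**
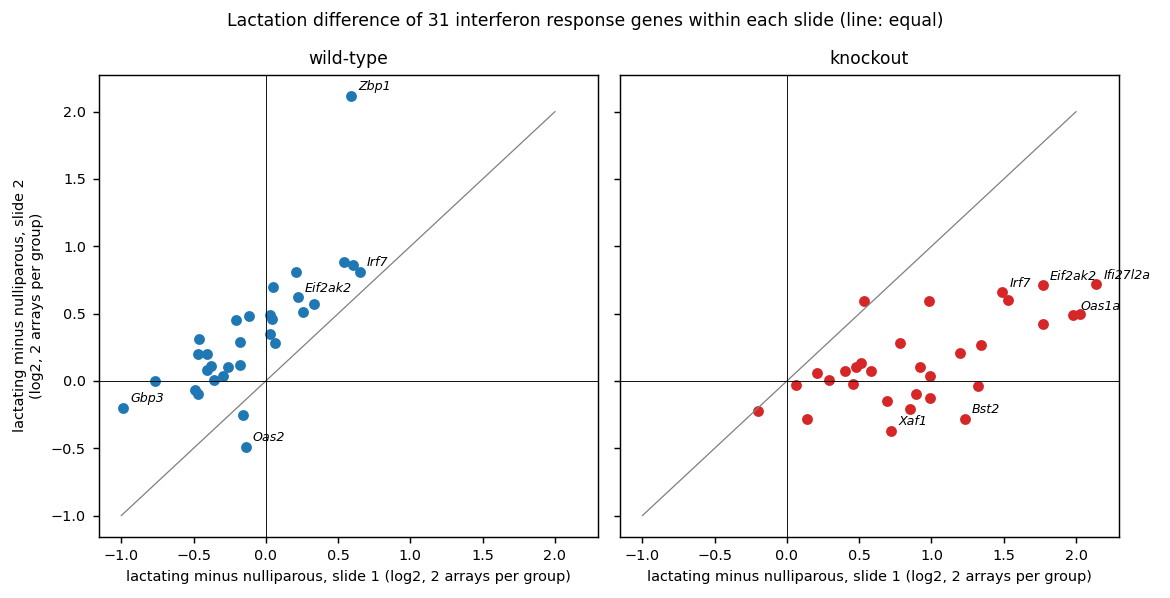
Lactation difference of the 31 genes on slide 1 (horizontal) against slide 2 (vertical), in log2 units with 2 arrays per group on each slide, wild-type on the left and knockout on the right, and a line of equal values. Knockout points spread along the slide 1 axis up to 2.14 for Ifi27l2a and stay at or below 0.72 on slide 2, and most wild-type points lie above the line.

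Within groups, the genes varied together from mouse to mouse. With the group means removed, the mean pairwise Pearson correlation over the 16 arrays was 0.522 among the 31 genes, 92.7% of pairs being positive, against 0.0381 among 13970 genes with complete values. These correlations describe 16 arrays that share slides and scaling, and they carry no test. Since the genes moved together, counts of them on 1 side of 0 in any comparison are not counts of independent results. Oasl2 (0.923), Ifi44 (0.916) and Ddx58 (0.904) correlated most with the mean of the other members. Trim25 (-0.109) and Gbp2 (0.0791) stood apart from it, and Oas2 came next at 0.391. The 8 genes most like Irf7 among 13969 by the same residual correlation were Eif2ak2 (0.903), Oasl1 (0.880), Tmem88 (0.870), Oasl2 (0.846), Zkscan2 (0.83), Ppfibp2 (0.826), Cryab (0.822) and Nrg4 (0.805). Of these, 2 are members and Oasl1 is a further interferon-induced gene.

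Upstream of the response, fewer genes were called than the share over all genes. Of 16 listed interferons, receptors and kinases, all had a probe and 11 were tested, and in wild-type hearts 2 rose and 1 fell with lactation (27.3%, against 50.3% of all genes). Ifngr2, the second chain of the gamma receptor, rose by 0.74 ± 0.19 (adjusted p = 0.00524), Ifnar2 rose by 0.29 ± 0.09 (0.0183) and Ifnar1 fell by 0.39 ± 0.11 on the log2 scale (0.0107). In knockout hearts Ifngr2 rose by 0.76 ± 0.19 (0.00571) and the other 10 did not pass (9.09% called, against 44.1%). The median differences of this list were 0.04 and -0.01.

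Of 22 listed sensing components other than the members, 18 were tested, and 9 rose and 2 fell in wild-type and 10 rose and 2 fell in knockout hearts, with medians of 0.41 and 0.47. These are 61.1% and 66.7% of those tested, against 50.3% and 44.1% of all genes. Tlr7, the endosomal receptor of single-stranded RNA, rose by 1.54 ± 0.19 (adjusted p = 8.1e-05) in wild-type and 1.45 ± 0.19 (0.000437) in knockout hearts. Mavs, the adaptor downstream of Ddx58 and Ifih1, rose by 1.14 ± 0.14 (8.1e-05) and 0.77 ± 0.14 (0.0011), and Tbk1, the kinase that activates Irf3, by 0.87 ± 0.11 (0.000102) and 0.53 ± 0.11 (0.0027). Irf5 rose by 1.03 ± 0.20 (0.000998) and 1.08 ± 0.20 (0.00138), Tlr4 by 0.80 ± 0.16 (0.0012) and 0.43 ± 0.16 (0.0446) and Ripk1 by 0.62 ± 0.14 (0.00274) and 0.67 ± 0.14 (0.00245). The 2 genes that fell in both genotypes are named after their values were seen. Aim2, a sensor of cytosolic DNA, fell by 1.11 ± 0.34 (0.0156) and 1.48 ± 0.34 (0.00406) on the log2 scale, and Irf3, the factor that first switches on interferon beta, fell by 0.29 ± 0.09 (0.0147) and 0.40 ± 0.09 (0.00306).

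Among 18 genes listed as restraining the response, all tested, 4 rose and 0 fell in wild-type (22.2%, against 50.3% of all genes) and 5 rose and 0 fell in knockout hearts (27.8%, against 44.1%), shares below those of all genes. Ptpn11, the phosphatase SHP2, rose by 0.60 ± 0.11 (adjusted p = 0.000753) and 0.48 ± 0.11 (0.00454), and Isg20 rose by 0.39 ± 0.12 (0.0154) and 0.40 ± 0.12 (0.0150). Isg20 stands in this list although it is known as an exonuclease that degrades viral RNA, an effector and not a restraint. Ptpn2 (0.38 ± 0.09, 0.00288) and Trex1 (0.23 ± 0.09, 0.0339) rose in wild-type hearts. Ptpn6 (0.99 ± 0.20, 0.00173), Nlrc3 (0.31 ± 0.10, 0.0235) and Irf2bp1 (0.29 ± 0.10, 0.0249) rose in knockout hearts. The medians of the list were 0.13 and 0.07.

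A list of 68 other interferon-induced genes, 61 of them tested, held calls in both directions. In wild-type hearts 16 rose and 9 fell (41%, against 50.3% of all genes), and in knockout hearts 23 rose and 6 fell (47.5%, against 44.1%), with medians of 0.14 and 0.29. Gbp10 rose by 0.99 ± 0.11 (adjusted p = 4.97e-05) and 0.80 ± 0.11 (0.000437), whereas its relative Gbp6 fell by 2.21 ± 0.32 (0.000174) and 1.70 ± 0.32 (0.00141) on the log2 scale. Lgals9, a galectin, and Lgals3bp, a galectin-binding protein, rose in both genotypes, Lgals9 by 0.77 ± 0.18 (0.00294) in wild-type and 1.02 ± 0.18 (0.00105) in knockout hearts and Lgals3bp by 1.23 ± 0.21 (0.000397) and 1.17 ± 0.21 (0.00112). Slfn9 fell by 1.18 ± 0.16 (0.000123) and 1.12 ± 0.16 (0.000543), and Pnpt1 rose by 0.90 ± 0.12 (0.000119) and 0.59 ± 0.12 (0.00228). Iigp1 fell by 1.29 ± 0.18 (0.000119) in wild-type hearts and differed by -0.33 ± 0.18 (0.137) in knockout hearts. Of 13 tested genes of class I antigen presentation, 2 rose and 3 fell in wild-type (38.5%) and 1 rose and 1 fell in knockout hearts (15.4%). B2m, the light chain of class I molecules, rose by 0.84 ± 0.26 (0.0155) and 1.16 ± 0.26 (0.00344), and H2-Q4 fell by 0.64 ± 0.10 (0.000276) and 0.43 ± 0.10 (0.00472). Psme1 rose by 0.40 ± 0.09 (0.00200) in wild-type hearts, where Tapbp fell by 0.32 ± 0.08 (0.00397) and Tap2 fell by 0.33 ± 0.10 (0.0142). Over the 121 tested genes of these 5 lists, limma called 0 in either genotype comparison and 0 in the interaction. At an unadjusted p under 0.05 there were 7 higher and 3 lower in nulliparous knockout, where 6.5% and 2.13% of all genes passed. There were 9 higher and 3 lower in lactating knockout (4.24% and 4.9% of all genes), and 7 higher and 3 lower in the interaction (2% and 4.38%).

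Macrophage markers moved with lactation in both genotypes, and in whole ventricle more cells of a type and more RNA per cell cannot be told apart. All 12 listed markers were tested, and 9 rose and 1 fell in wild-type (83.3%, against 50.3% of all genes) and 10 rose and 1 fell in knockout hearts (91.7%, against 44.1%), with medians of 1.13 and 1.17. Lyz2 rose by 2.78 ± 0.38 (adjusted p = 0.000122) and 2.49 ± 0.38 (0.000615), and C1qa by 2.00 ± 0.29 (0.000162) and 2.01 ± 0.29 (0.000531). Itgam fell by 0.94 ± 0.20 (0.00172) and 1.16 ± 0.20 (0.000969) on the log2 scale. Its probe was far brighter than the rest, at a mean log2 level of 7.01, against -3.6 to 4.37 for the other 11 markers. Whether that probe reads Itgam alone was not tested, so its fall may not be that of a macrophage marker. A sum of signals weights each probe by its brightness, and Itgam made up 53.7% to 89.6% of it, so the sum says little of the other 11 markers. It went from 216 to 226 times the array's 75th percentile in nulliparous wild-type arrays to 139 to 179 in lactating ones, and from 148 to 269 to 131 to 158 in knockout arrays. Without Itgam, a choice made after its values were seen, the sum ran from 26.3 to 31.1, 50.6 to 59.3, 23.5 to 46.5 and 58.4 to 70.1 in nulliparous wild-type, lactating wild-type, nulliparous knockout and lactating knockout arrays. The mean log2 level of the list, each marker centred on its mean, ran from -0.82 to -0.51 in nulliparous wild-type, 0.23 to 0.51 in lactating wild-type, -0.82 to 0.22 in nulliparous knockout and 0.49 to 0.77 in lactating knockout arrays. Nulliparous knockout replicates 1 to 4 read -0.68, -0.82, -0.4 and 0.22, where the average of the interferon genes read -0.43, -0.65, 0.04 and 0.04. Nulliparous wild-type replicate 4 also read -0.82, with an interferon average of -0.04. The part of these cells in the interferon differences was not tested.

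Of 12 listed T and NK cell markers 6 were tested, and Cd3g, Cd8a, Ncr1, Gzmb and Klrb1c were not well above background on all 4 arrays of any group. Of those tested, 0 rose and 1 fell in wild-type (16.7%, against 50.3% of all genes) and 0 were called in knockout hearts (0%, against 44.1%). Their summed signal ran from 7.42 to 8.40, 7.50 to 7.99, 6.68 to 8.18 and 6.28 to 7.26 times the array's 75th percentile in nulliparous wild-type, lactating wild-type, nulliparous knockout and lactating knockout hearts. Cd79a, a defining B cell marker, failed the filter. Of the 6 tested markers of B and plasmacytoid dendritic cells 1 rose and 3 fell in wild-type (66.7%) and 0 rose and 2 fell in knockout hearts (33.3%), against 50.3% and 44.1% of all genes. Of the 10 cardiomyocyte markers all were tested and bright, their summed signal lying between 6490 and 10400 on every array, as the ventricular label implies. With lactation 3 of them rose and 3 fell in wild-type (60%) and 2 rose and 6 fell in knockout hearts (80%), against 50.3% and 44.1% of all genes. Myh6, which encodes the alpha myosin heavy chain, fell by 0.39 ± 0.13 (0.02) and 0.63 ± 0.13 (0.00187) on the log2 scale, and Pln, the inhibitor of the calcium pump, rose by 1.45 ± 0.26 (6e-04) and 1.17 ± 0.26 (0.00342). The part of this in the interferon differences was not tested. Fibroblast markers rose in 4 of 8 cases and fell in 1 in wild-type (62.5%), and rose in 5 of 8 in knockout hearts (62.5%), against 50.3% and 44.1% of all genes. Their summed signal ran from 343 to 418, 355 to 420, 365 to 384 and 351 to 445 in nulliparous wild-type, lactating wild-type, nulliparous knockout and lactating knockout hearts. Their part in the interferon differences was not tested. Endothelial markers rose in 2 of 9 cases in wild-type and 3 of 9 in knockout hearts and fell in 1 in each genotype (33.3% and 44.4% called). Of the 3 tested neutrophil markers 1 rose and 1 fell in wild-type (66.7%) and 0 rose and 1 fell in knockout hearts (33.3%). The shares over all genes were again 50.3% and 44.1%.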

How the data were processed

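Ventricular RNA of 16 female mice was measured on 1-colour arrays of 62976 spots. Per the file headers, the authors read the scans with Agilent Feature Extraction 10.7.3.1 and deposited linear intensity values, background subtracted and unscaled between arrays. A second deposited file holds log2 values. Set against the log2 signal minus the 75th percentile minus the average over nulliparous wild-type, each of its columns correlated at r = 1, with median differences of -0.026 to 0.019, so its scale, centring and direction are known, and positive means above the nulliparous wild-type mean. Column medians lay between -0.0989 and 0.0318 on nulliparous arrays, except -0.303 on knockout replicate 4. On lactating arrays they lay between -0.382 and -0.243. This table served as an alternative.

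Control spots and values marked as outliers were left out, spots of 1 probe were averaged, and 28026 of 55681 probes were named by RefSeq accession in a table of assembly GRCm38.p6, for names only, since the array headers name another build. No probe was saturated. Each processed signal was divided by the 75th percentile of its array's non-control probes, and log2 was taken. The model had 4 group means over 16 arrays (limma 3.58.1 in R 4.3.3, 12 residual degrees of freedom), and slide contrasts added slide, or used 8 means of group and slide. Calls required an adjusted p under 0.05 (Benjamini-Hochberg, 14060 genes). The number of arrays limits the precision. The fit was checked on simulated data. Figures used matplotlib 3.10.9.

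Values are printed on every array for 12 core members and for up to 4 called members with the largest rise and 4 with the largest fall per comparison. Up to 5 called genes per pathway list and comparison are named, as are the 8 genes most correlated with Irf7. One gene of the upstream list is not reported here. The members and lists were chosen with earlier results of these data known. Alternatives were background correction (normexp, offset 50), quantile normalisation, median centring, filters, the mean of a gene's probes, blocks for slide and replicate, single slides, the authors' table and each array left out.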

Additional observations from a re-analysis of the deposited data

Results flagged for a closer look

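Within each group of 4 arrays, the highest or lowest value of a gene was set against the other 3 by Dixon's ratio of gap to range. Over 124 combinations of gene and group, 7 exceeded its 95% critical value, and chance alone flags about 1 in 20. In lactating knockout hearts, replicate 2 stood high for Ifi44 at 0.55, the others lying from -0.03 to -0.01, and for Ifit1 at -0.26, the others lying from -1.43 to -1.24. Replicate 3 of that group was low for Xaf1 at 0.56, the others lying from 1.31 to 1.40. In nulliparous knockout hearts, replicate 3 was high for Dhx58 at -1.78, against -2.66 to -2.62, and replicate 4 for Tap1 at -2.30, against -3.15 to -3.06. In nulliparous wild-type hearts, replicate 1 was high for Psmb8 at 2.53, against 1.75 to 1.88. Replicate 3 of that group was low for Zbp1 at -5.56, against -3.68 to -3.35, on a probe above background on 2 of its 4 arrays.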

How the results depend on the processing

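The counts of called interferon genes in the genotype, interaction and slide comparisons were 0 under each alternative that could be fitted, other than the 2 contrasts of slide and lactation, which ran from 0 to 1 with single arrays left out. For lactation in wild-type hearts the count of 4 became 7 with median centring, 1 (lower) on slide 1 alone and 0 on slide 2 alone, and ran from 2 to 5 with single arrays left out, 2 being without lactating wild-type replicate 4. For lactation in knockout hearts the count of 12 became 20 with median centring, 18 on slide 1 alone and 0 on slide 2 alone, and ran from 10 to 16, the highest being without nulliparous knockout replicate 3. Both single-slide fits had 8 arrays, and the cause of these changes was not tested. Of the 16 called differences of single genes, none changed sign in 429 alternative values, and 43 of these lost the call, 16 of them on slide 2 alone. Of the 46 uncalled lactation differences, 26 changed sign under some alternative, never while called. With the sign kept, 20 of the 46 were called under at least 1 alternative.

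Replicate numbers were also fitted as a block. Same-numbered arrays correlated at -0.0456 to 0.176 in their deviations from the group means. For some arrays the same number was the closest match in the other group, and for others it was not. Same-numbered arrays also share a slide. The numbers were not taken as pairs in the main fit. With the replicate block 4 genes were called in wild-type and 11 in knockout hearts, Ifit3 being lost (adjusted p = 0.0575), and 0 in the genotype and interaction contrasts. The slide contrast could not be fitted with that block. Dim probes (Zbp1, Tap1) limit what signal over background allows.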
